A study of Mus musculus with 8 samples.

Results

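The voltage-gated and related potassium, sodium and calcium channel genes were examined for lactylation of histone H4 at lysine 12 (H4K12la) in mouse brain cells. Members were the protein-coding RefSeq genes of the mouse GRCm38.p6 assembly with symbols beginning in Kcn, or in Scn or Cacn followed by a digit or by a letter and a digit. This rule gave 138 of 21883 protein-coding genes, of which 94 were Kcn, 18 Scn and 26 Cacn genes. Taken literally it also admits Scnn1a, Scnn1b and Scnn1g, which encode epithelial sodium channel subunits, and Scnm1, a splicing factor that is not a channel. H4K12la was mapped by CUT&Tag, where a Tn5 transposase is brought to antibody-bound chromatin, and 1 peak list per library was deposited. There were 8 libraries, made from total brain cells and from microglia, with 2 WT and 2 5XFAD libraries of each preparation. All were prepared from perfused, dissociated brain without the cerebellum after removal of myelin debris, and the microglia were then selected on CD11b beads. 5XFAD mice carry mutant human transgenes under the neuronal Thy1 promoter and serve as a model of amyloid deposition, and WT mice are the controls. The labels give no age or sex and give no source for the replicates, such as single animals or pools, so each p-value measures only the spread between these libraries, which may be technical.

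Potassium channels let potassium leave the cell and hold the membrane potential negative, while sodium and calcium channels let these ions enter and carry the upstroke of action potentials and calcium signals. Pore-forming subunits are joined by accessory subunits that set their trafficking and gating. Most of the family is known for its work in neurons, and a small group serves microglia: Kcnk13 encodes THIK-1, the tandem-pore channel that sets the microglial resting potential, Kcnk6 encodes a tandem-pore channel linked to potassium efflux and inflammasome activation in macrophages, and Kcna3 encodes a voltage-gated channel of activated microglia and T cells. Histone lactylation is an acyl mark derived from lactate that is found at active promoters and enhancers.

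The lists held 22543 to 32967 peaks in total cells and 22300 to 41783 in microglia. Peaks were wider in microglia, with median widths of 580 to 734 bp against 287 to 366 bp, so the 4 microglia lists covered 15.3 to 36.3 Mb and the 4 total cell lists 7.78 to 14.8 Mb. Read counts were not analysed here, so the depth is unknown and a gene without a peak is one for which none was listed. A gene-end peak falls within 2 kb of one of the annotated limits of a gene, and an intragenic peak overlaps the gene between those windows. Of 18 microglial marker genes, 15, 17, 16 and 18 had a gene-end peak in the microglia libraries, and 4, 5, 10 and 5 in the total cell libraries, where the 10 belonged to 5XFAD replicate 1. Of 15 neuronal marker genes only 1 or 2 had one in any library, total cells included, and 10 had none anywhere. Astrocyte markers had a gene-end peak for 1 to 4 of 9 genes in total cells and 2 to 3 in microglia. Oligodendrocyte markers had one for 1 to 2 of 10 in total cells and 2 to 3 in microglia. The ranges were 1 to 2 and 2 to 4 of 8 for vascular markers, and 0 to 1 and 1 to 3 of 10 for other leukocytes, in the same order. In such bulk lists, fewer cells of a type and less mark per cell cannot be told apart.

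Promoters that lay under a peak in some libraries and not in others are shown for 5 channel genes, each 300 bases around an annotated start, taken from RefSeq (GRCm38.p6) and written in the direction of transcription. These 5 were chosen after the values were seen, because the results below turn on them. Capitals mark GAGGAA or its reverse complement TTCCTC, the core of sites bound by PU.1, a transcription factor of microglia and macrophages. Both strands were searched, and 27.4% of all 21262 promoters in the table held a match, beside 27.7% of the 137 promoters of channel genes. A match is a description of the letters and not a binding site. The Kcnk13 promoter (chr12:99964249-99964548, plus strand) held 9 CG dinucleotides and 1 match, and lay under a peak in all 4 microglia and 2 total cell libraries. The Kcna3 promoter (chr3:107035912-107036211, plus strand) held 37 and 2 matches, and lay under a peak in both total cell libraries of 5XFAD mice and in no microglia library. The Kcnj2 promoter (chr11:111065914-111066213, plus strand) held 18 and 2 matches, with a peak in 3 microglia and 2 total cell libraries. The Kcnk2 promoter (chr1:189343304-189343603, minus strand), which belongs to a start inside the outermost limits of the gene, held 33 and 0 matches, with a peak in 3 total cell libraries and no microglia library. The Cacna1c promoter (chr6:119196360-119196659, minus strand) held 3 and 0 matches, with a peak in the 4 libraries of 5XFAD mice and in none of WT mice.
Kcnk13: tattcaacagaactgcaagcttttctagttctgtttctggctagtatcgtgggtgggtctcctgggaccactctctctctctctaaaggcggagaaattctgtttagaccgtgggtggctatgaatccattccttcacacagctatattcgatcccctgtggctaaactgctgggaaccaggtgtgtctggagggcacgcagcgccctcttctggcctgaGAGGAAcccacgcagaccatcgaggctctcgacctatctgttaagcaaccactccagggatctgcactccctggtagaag
Kcna3: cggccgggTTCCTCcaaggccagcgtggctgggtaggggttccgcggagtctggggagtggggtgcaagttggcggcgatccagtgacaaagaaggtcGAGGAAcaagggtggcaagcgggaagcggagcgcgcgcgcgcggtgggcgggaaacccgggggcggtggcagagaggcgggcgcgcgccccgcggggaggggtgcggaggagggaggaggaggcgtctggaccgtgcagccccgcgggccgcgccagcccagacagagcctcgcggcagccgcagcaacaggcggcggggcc
Kcnj2: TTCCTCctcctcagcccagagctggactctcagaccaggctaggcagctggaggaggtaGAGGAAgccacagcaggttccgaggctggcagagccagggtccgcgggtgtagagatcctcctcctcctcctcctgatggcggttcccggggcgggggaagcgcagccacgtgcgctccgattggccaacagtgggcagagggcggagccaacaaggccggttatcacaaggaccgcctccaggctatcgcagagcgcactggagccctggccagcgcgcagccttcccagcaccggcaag
Kcnk2: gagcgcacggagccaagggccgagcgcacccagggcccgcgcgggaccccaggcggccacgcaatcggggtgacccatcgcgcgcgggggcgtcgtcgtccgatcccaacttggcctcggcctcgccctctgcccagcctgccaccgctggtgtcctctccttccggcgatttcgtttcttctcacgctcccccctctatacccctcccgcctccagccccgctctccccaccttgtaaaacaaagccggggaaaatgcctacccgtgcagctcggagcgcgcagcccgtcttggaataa
Cacna1c: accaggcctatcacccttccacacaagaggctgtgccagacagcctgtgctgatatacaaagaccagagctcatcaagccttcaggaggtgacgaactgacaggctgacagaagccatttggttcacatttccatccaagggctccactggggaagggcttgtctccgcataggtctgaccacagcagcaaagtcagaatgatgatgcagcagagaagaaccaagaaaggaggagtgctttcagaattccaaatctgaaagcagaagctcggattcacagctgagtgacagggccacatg

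Channel genes carried H4K12la peaks at their ends less often than protein-coding genes as a whole in all 8 libraries. In total cells, 19 and 11 channel genes had a gene-end peak in WT and 24 and 13 in 5XFAD, and in microglia 16 and 26 had one in WT and 23 and 31 in 5XFAD. As shares of the 138 members these were 7.97% to 17.4% in total cells and 11.6% to 22.5% in microglia, against 34.2% to 41.8% and 33.3% to 49% of all protein-coding genes. Every channel gene share lay below every share of all genes. The difference was -24.7 ± 1.5 percentage points in total cells and -24.3 ± 1.96 in microglia (SD, n = 4 libraries each). Over the 8 libraries together, 45 channel genes (32.6%) had a gene-end peak in at least 1 library, against 58.8% of all genes, and 93 (67.4%) had none in any, against 41.2%. Only 2 (1.45%) had one in all 8 libraries, against 17.7%. No peak was listed in the gene body or the 2 kb around it in any library for 61 channel genes (44.2%), against 34% of all genes.

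Per unit of gene length, intragenic peaks were also sparser than over all genes. In total cells the channel genes held 80 and 67 intragenic peaks in WT and 101 and 57 in 5XFAD, and in microglia 50 and 96 in WT and 86 and 133 in 5XFAD. That was 3.46 to 6.14 peaks per Mb of gene interior in total cells and 3.04 to 8.08 in microglia, against 11.8 to 18.6 and 11.6 to 22.7 over all protein-coding genes. The ratio of the densities was 0.329 ± 0.0328 in total cells and 0.319 ± 0.04 in microglia (SD, n = 4 each), so the preparations differed by less than the spread between libraries. Counted by gene rather than by length, 60 channel genes (43.5%) had at least 1 intragenic peak in some library, against 39% of all genes. Among genes of at least 100 kb the order was reversed, with 65.1% of channel genes against 83.6% of all genes. For 32 of the 60 (23.2% of members, against 7.14% of all genes) no gene-end peak was listed anywhere. Among genes of at least 100 kb, 44.2% of channel genes and 23.6% of all genes had intragenic peaks alone.

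**Figure D1:**
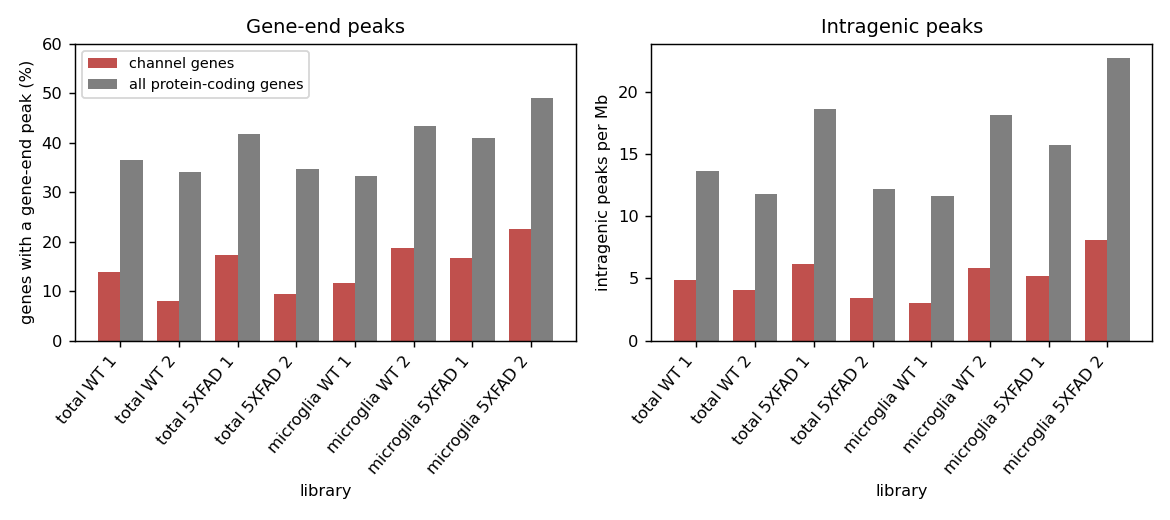
Left, the share of genes with a gene-end H4K12la peak (%) in each of the 8 libraries; right, intragenic peaks per Mb of gene interior, with red bars for the 138 channel genes and grey bars for all protein-coding genes. The red bar is the lower one in every library and in both panels, reaching 22.5% at most on the left against 33.3% for the lowest grey bar.

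Length and crowding were compared with the same measures over all genes. The channel genes were longer, with a median of 42.6 kb against 17.2 kb. Of the 43 channel genes of at least 100 kb, 32 (74.4%) lacked a gene-end peak throughout, against 36.2% of the 2428 protein-coding genes of that size. For 42 channel genes a gene-end window overlapped the window of another protein-coding gene, and 24 of these (57.1%) had a gene-end peak, against 78.1% of all genes with such windows. Of the 96 channel genes whose windows were clear of other genes, 21 (21.9%) had one, against 44.7% of all genes with clear windows. The channel genes were thus below all genes among long genes, among crowded genes and among isolated genes.

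Promoters were compared by the number of CG dinucleotides they hold. The promoter table held 137 promoters of 101 channel genes, with a median of 9 CG dinucleotides in 300 bases against 13 over all promoters. A peak lay on 20 of them (14.6%) in at least 1 library, against 45% of all promoters, and on 0 in all 8 libraries, against 10.6%. Among promoters with 0 to 9 CG dinucleotides, 9 of 71 channel gene promoters (12.7%) and 17.4% of all promoters had a peak. With 10 to 19, the figures were 2 of 24 (8.33%) and 63.9%, and with 20 or more they were 9 of 42 (21.4%) and 67.3%. Promoters of all genes therefore had a peak more often where they held more CG dinucleotides, while those of the channel genes had one in at most 21.4% in each class. The shares of channel genes and of all genes lay furthest apart in the middle class and closest in the lowest.

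**Figure D2:**
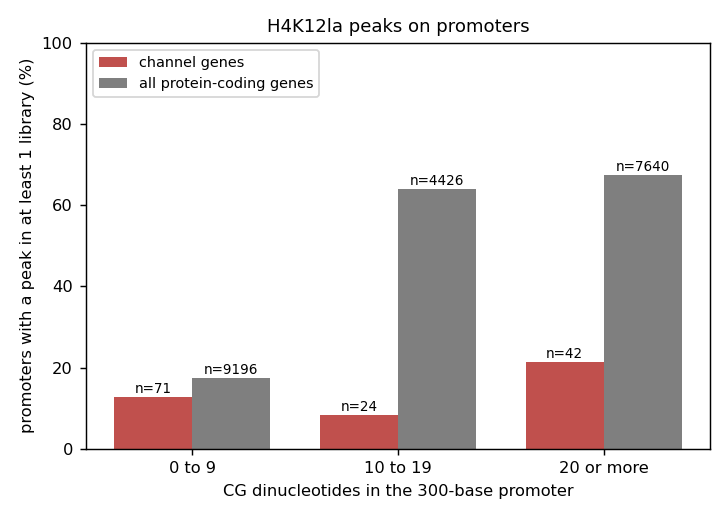
Share of 300-base promoters overlapped by an H4K12la peak in at least 1 library (%, y axis) by the number of CG dinucleotides they hold (x axis), for channel genes (red) and all protein-coding genes (grey), with the number of promoters above each bar. At 20 or more CG dinucleotides the bars stand at 21.4% and 67.3%.

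By role, gene-end peaks were scattered over the pore-forming subunits. Among voltage-gated potassium channel genes, at least 1 library had a gene-end peak at 2 of 8 Kcna genes, 3 of 9 Kcnb, Kcnc and Kcnd genes, 2 of 8 Kcnh genes and 2 of 5 Kcnq genes, as well as at 2 of 10 genes of the electrically silent Kcnf, Kcng, Kcns and Kcnv subunits. The inward rectifiers (Kcnj) had 4 of 15 and the tandem-pore leak channels (Kcnk) 5 of 14. The pore-forming Kcnm, Kcnn, Kcnt and Kcnu genes had 5 of 8 (62.5%), more than the other pore-forming potassium families and near the 58.8% of all genes. Among these 5, Kcnt1 had a gene-end peak in 1 library alone, and the windows of Kcnn1 overlap Arrdc2 and Ccdc124. Among the potassium accessory subunits, 5 of 17 had one. Of the sodium channel genes, 2 of 10 alpha subunits, 2 of 4 beta subunits and 1 of 3 Scnn genes had one. The pore-forming Cacna1 genes had 2 of 10, the Cacna2d genes 1 of 4 and the Cacng genes 2 of 8. All 4 Cacnb genes, which encode the cytoplasmic beta subunits of calcium channels, had one, and each of the 4 shares a gene-end window with a neighbour: Cacnb1 with Rpl19, Cacnb2 with Nsun6, Cacnb3 with Ddx23 and Cacnb4 with Arl5a. A peak in a shared window cannot be assigned to either gene.

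Among the channel genes marked at an end in all 8 libraries was Scnn1a, the alpha subunit of the epithelial sodium channel (gene 20276, chromosome 6, 125314271 to 125344943), which shares its window with Ltbr. The score percentile of its best gene-end peak, that is the rank of the authors' score within its own list, was 37.8 and 72.3 in WT and 38.5 and 49.4 in 5XFAD total cells. In microglia it was 69.2 and 73.2 in WT and 61 and 78.5 in 5XFAD. The values of the preparations overlapped.

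**Figure D3:**
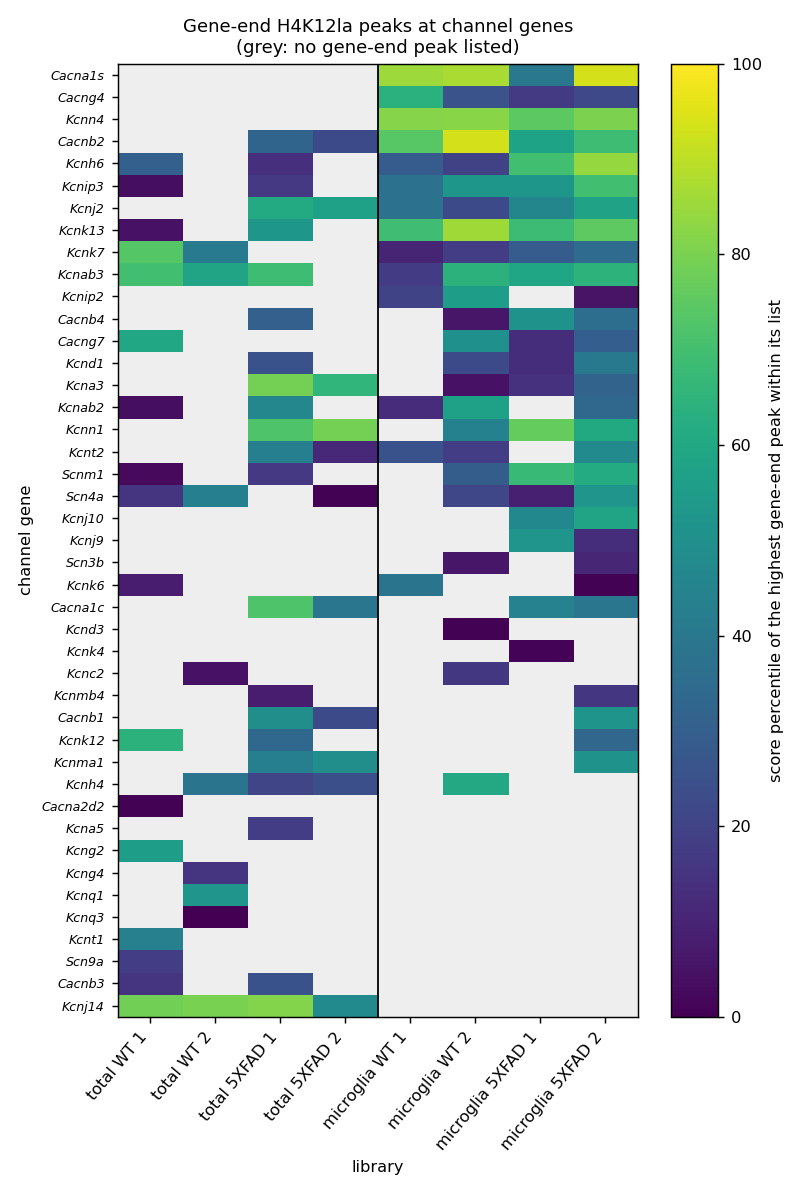
The 43 channel genes with a gene-end peak in at least 1 and not all libraries (rows) by library (columns), coloured by the score percentile of the best gene-end peak within that library's list; grey means that no gene-end peak was listed. Most rows are filled in only some columns. Rows filled in the 4 microglia columns are Kcnk13, Kcnn4, Cacna1s, Cacnb2, Cacng4, Kcnab3, Kcnh6, Kcnip3, Kcnj2 and Kcnk7.

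Of the microglial channels singled out, Kcnk13 stood furthest from total cells. Kcnk13 (gene 217826, chromosome 12, 99963149 to 100062682) had 6 and 8 peaks over its body and flanks in WT microglia and 7 and 13 in those of 5XFAD mice, against 1 and 0 in WT total cells and 3 and 1 in those of 5XFAD mice. The lowest microglia library thus had 3 more peaks than the highest total cell library, and the groups did not overlap. After scaling to 10000 peaks per list, the log2 difference between microglia and total cells was 1.83 ± 0.24 (SE; limma, adjusted p = 0.000454, higher in 4 of 4 microglia libraries), on the scale of log2(value + 0.5). The percentile of its gene-end peak was 69.2 and 85.6 in WT microglia, 68.4 and 75.2 in those of 5XFAD mice, 4.72 in total cells WT 1 and 52.9 in total cells 5XFAD 1, with none listed in the other two. Merging overlapping peaks over the lists gave 12 regions at Kcnk13, of which 12 were marked in at least 1 microglia library and 3 in at least 1 total cell library.

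The regions of Kcnk13 lay along the whole gene. The one nearest a start spanned 99964457 to 99965687, and its midpoint lay 573 bases downstream of the start whose promoter is printed above. The best-scoring region by mean percentile (82.6) spanned 99978950 to 99980631, about 15 kb into the gene, and was marked in all 4 microglia libraries and in total cells 5XFAD 1. The regions from 99974339 to 99975388 and from 100006520 to 100008833 were marked in each microglia list but not in total cells. No genotype difference passed for Kcnk13: the log2 difference, 5XFAD minus WT, was 0.08 in microglia (limma, adjusted p = 0.939) and 0.78 in total cells (adjusted p = 0.279). The microglial value turned to -0.0975 without 5XFAD replicate 2.

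Kcnk6 (gene 52150, chromosome 7, 29221928 to 29232522) had few peaks, 1 and 2 in WT microglia and 3 and 3 in those of 5XFAD mice, against 1 in total cells WT 1 and 0 in the other total cell libraries. Microglia WT 1 and total cells WT 1 were level in listed peaks. The log2 difference was 1.02 ± 0.208 (limma, adjusted p = 0.00506). Its intragenic regions at 29224307 to 29225771 and 29228118 to 29230250 were each marked in 3 microglia libraries (WT 2, 5XFAD 1 and 5XFAD 2) and in no total cell library. Its gene-end region was marked in total cells WT 1, microglia WT 1 and microglia 5XFAD 2, at percentiles of 7.53, 38.5 and 0.454. The genotype difference was 0.41 in microglia (limma, adjusted p = 0.879) and -0.42 in total cells (adjusted p = 0.56).

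Kcna3 (gene 16491, chromosome 3, 107036162 to 107038129) is a short gene, and all of its peaks fell in its gene-end windows. A gene-end peak was listed in both 5XFAD libraries of total cells, at percentiles of 79.3 and 65.9, and in neither WT library. In microglia it was listed in WT 2, 5XFAD 1 and 5XFAD 2, at percentiles of 4.9, 14.1 and 31.9, and not in WT 1. The peaks lay at different places. The region next to the start, 107035622 to 107036173, was marked in both 5XFAD libraries of total cells and in microglia 5XFAD 1, where the peak did not overlap the promoter printed above, while the other, 107037481 to 107038099 near the 3' end, was marked in microglia WT 2 and 5XFAD 2. Kcna3 had too few peaks for the limma fit and has no test of its number of peaks.

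**Figure D4:**
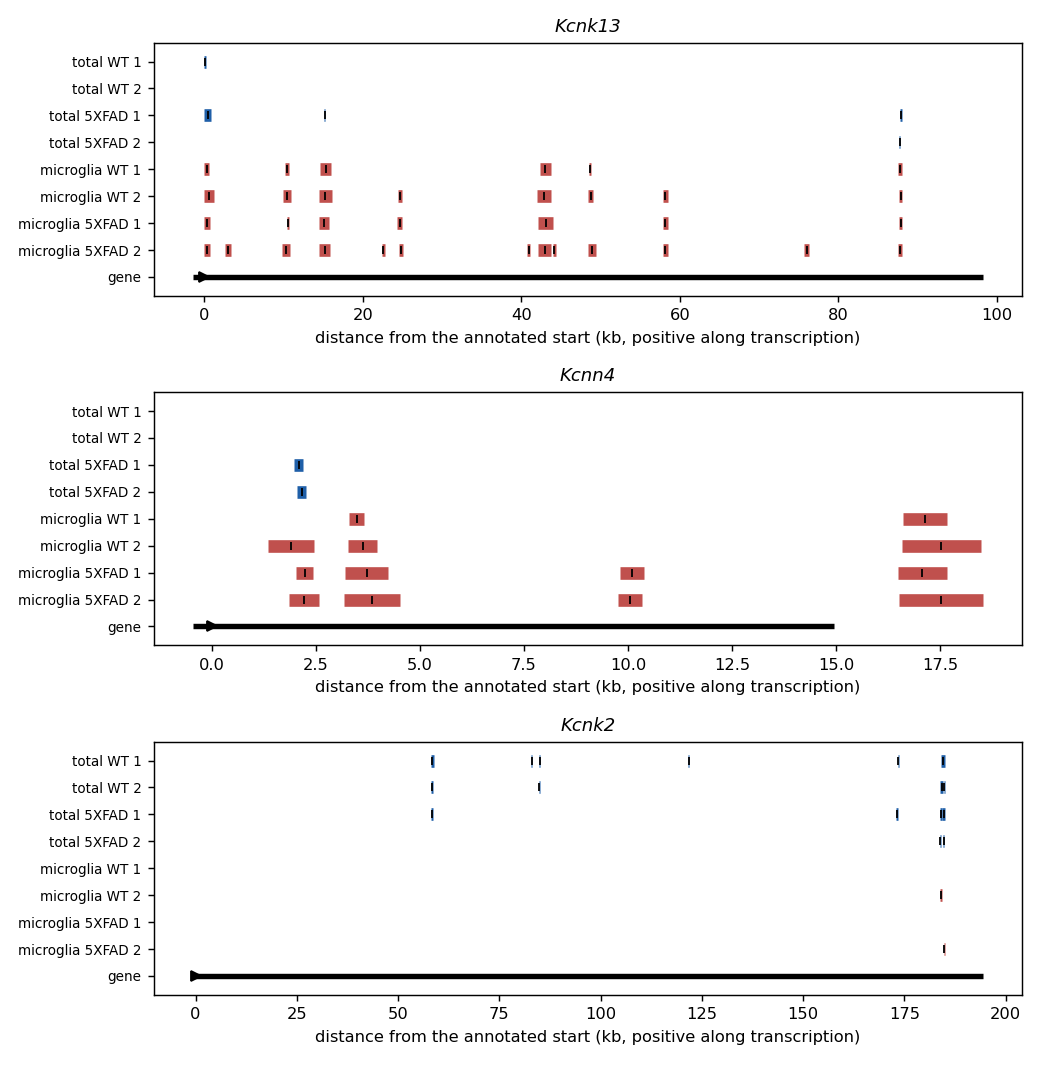
Peaks of each library (rows) along Kcnk13, Kcnn4 and Kcnk2, by distance in kb from the annotated start (x axis), in blue for total cells and red for microglia, with a black tick at each peak's midpoint; the black bar is the gene and the arrowhead its outermost start in the promoter table. Kcnk13 has peaks along its length in the 4 microglia rows, whereas the peaks of Kcnk2 are mostly in the total cell rows and cluster well downstream of its outermost start.

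The number of peaks over the gene body and 2 kb on both sides was compared between preparations with limma across all genes averaging at least 1 peak per library. Of 8865 genes tested, 1108 (12.5%) were called higher and 1022 (11.5%) lower in microglia at an adjusted p below 0.05. The filter kept 33 of the 138 channel genes, and among these 10 were called higher and 7 lower. Since a gene passes the filter through the libraries in which it has many peaks, these counts are a description of the 33 and do not speak for the family. The same limit holds for the p-value of each gene. Most genes called, Kcnk13, Kcnn4 and Kcnk2 among them, were kept mainly through the preparation in which they had more peaks. Scaling to the length of each list does not remove the difference in peak width between the preparations, and its part in these results was not tested.

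Among the potassium channel genes called higher in microglia, the pore-forming ones besides Kcnk13 and Kcnk6 were Kcnn4, Kcnj12 and Kcnj10. Kcnn4, the intermediate-conductance calcium-activated channel of microglia and other blood-lineage cells (gene 16534, chromosome 7, 24369826 to 24385212), had 2 and 3 peaks in WT microglia and 4 and 4 in those of 5XFAD mice, against 0 and 0 in WT total cells and 1 and 1 in those of 5XFAD mice. No microglia value overlapped a total cell value, and the log2 difference was 1.20 ± 0.168 (limma, adjusted p = 0.000636). Kcnj12, a strong inward rectifier, had 3 and 6 peaks in WT microglia, 5 and 8 in those of 5XFAD mice, 0 and 0 in WT total cells and 4 and 1 in those of 5XFAD mice. Here total cells 5XFAD 1 exceeded microglia WT 1 in listed peaks but not per 10000 listed, and the log2 difference was 1.45 ± 0.221 (limma, adjusted p = 0.00102). All of its peaks were intragenic. Kcnj10, the inward rectifier known for potassium buffering by astrocytes, had 3 and 5 peaks in WT microglia and 4 and 5 in those of 5XFAD mice, against 1 and 1 in WT and 1 and 0 in 5XFAD total cells. The groups did not overlap, and the log2 difference was 1.27 ± 0.196 (limma, adjusted p = 0.00108). A region of Kcnj10 from 172346804 to 172348944 on chromosome 1 was marked in each microglia list, at a mean percentile of 86, and not in total cells.

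Accessory subunits and calcium channel genes made up the rest of those called higher. Cacnb2, a calcium channel beta subunit, had 4 and 4 peaks in WT microglia and 3 and 3 in those of 5XFAD mice, against 0 and 0 in WT and 3 and 2 in 5XFAD total cells, so that the 5XFAD total cells reached the microglia. Its log2 difference was 0.97 ± 0.182 (limma, adjusted p = 0.0033). Cacna1s, the L-type pore of skeletal muscle, had 2 peaks in each microglia library and 1 in total cells 5XFAD 1 alone (log2 difference 1.03 ± 0.198, limma adjusted p = 0.00361), and it shares a window with Ascl5. Kcnab3, a cytoplasmic beta subunit of Kcna channels, had 2 or 3 peaks in each microglia library and 0 or 1 in each total cell library, a log2 difference of 0.86 ± 0.199 (limma, adjusted p = 0.00989), in windows shared with Cntrob and Trappc1. The call for Kcnab3 was lost with bases covered in place of peaks (adjusted p = 0.291) and with equal numbers of peaks (0.303). Cacng4, an auxiliary subunit that also escorts AMPA receptors, had 1 or 2 peaks in each microglia library and 0 or 1 in each total cell library. Cacng4 differed by 0.64 ± 0.167 (limma, adjusted p = 0.0178). That call ended with bases covered in place of peaks (0.063), without microglia WT 1 (0.0529) and without microglia 5XFAD 2 (0.0785).

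Cacna1d, an L-type pore subunit of neurons and endocrine cells (gene 12289, chromosome 14, 30039941 to 30491156), held the most intragenic peaks of all channel genes, 126 summed over the 8 libraries. Its total cell libraries held 10 and 6 in WT and 16 and 12 in 5XFAD, its microglia libraries 12 and 21 in WT and 19 and 30 in 5XFAD, and its gene ends were unmarked throughout. The listed numbers overlapped between the preparations, while those per 10000 listed peaks did not. The log2 difference of 0.57 ± 0.139 (limma, adjusted p = 0.0133) ended without microglia WT 2 (0.0545), without microglia 5XFAD 2 (0.0619), with equal numbers of peaks (0.197) and with the higher-scoring 50% of peaks (0.0998). Next in intragenic peaks came Kcnma1, the large-conductance calcium-activated potassium channel, with 78, then Cacnb4 with 57, and Cacna1a, the P/Q-type pore of presynaptic terminals, and Kcnk13 with 33 each. The log2 differences of the first 3 of these did not pass, at 0.40 for Kcnma1 (limma, adjusted p = 0.0774), 0.37 for Cacnb4 (0.291) and 1.16 for Cacna1a (0.0508).

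The genes called lower in microglia were led by Kcnk2 and Kcnn3. Kcnk2, the mechanosensitive tandem-pore channel TREK-1 (gene 16526, chromosome 1, 189207930 to 189402782), had 6 and 4 peaks in WT total cells and 4 and 2 in those of 5XFAD mice, against 0 and 1 in WT and 0 and 1 in 5XFAD microglia. No library of one preparation reached the other, and the log2 difference was -1.68 ± 0.221 (limma, adjusted p = 0.000467). Its region at 189343402 to 189344229, whose midpoint lay at -109 bases from (upstream of) an internal start, was marked in 3 total cell libraries and no microglia library. Kcnn3, a small-conductance calcium-activated channel, had 3 and 4 peaks in WT total cells and 2 and 0 in those of 5XFAD mice and none in microglia. It was called lower (limma, adjusted p = 0.00354), and the size of its fitted difference depends on the pseudocount because all microglia libraries are at 0. It passed the filter through the total cells alone, and without total cells WT 1 or WT 2 it fell below the filter and was not tested.

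The other 5 calls in that direction were smaller. Kcnab1, a Kcna beta subunit, had 5 and 3 peaks in WT and 5 and 1 in 5XFAD total cells, against 0 and 1 in WT and 1 and 2 in 5XFAD microglia (log2 difference -1.18 ± 0.266, limma adjusted p = 0.00845), and the call ended without microglia WT 1 (0.0523). Cacna1c, the L-type pore of heart and neurons, had 8 and 3 in WT and 6 and 5 in 5XFAD total cells, against 2 and 4 in WT and 1 and 3 in 5XFAD microglia. Listed numbers overlapped and those per 10000 did not. Its log2 difference of -1.03 ± 0.25 (limma, adjusted p = 0.0125) did not pass without microglia WT 1 (0.0593), without microglia 5XFAD 1 (0.0687) or with equal numbers of peaks (0.0661). Kcnq1, a slowly activating voltage-gated channel, had 3 or 4 peaks in each total cell library and 1 or 2 in each microglia library. It differed by -0.83 ± 0.19 (limma, adjusted p = 0.00894), lost with equal numbers of peaks (0.388) and with the higher-scoring 50% (0.159). Cacna2d4, an alpha2delta subunit, had 1 to 3 and 0 or 1 and differed by -0.83 ± 0.196 (limma, adjusted p = 0.0111), lost without microglia WT 1 (0.0512). Scnn1a had 2 to 4 and 1 or 2 and differed by -0.68 ± 0.194 (limma, adjusted p = 0.0272), and 8 of the 16 alternatives in which it was tested lost that call, 6 of them by leaving out a library (adjusted p 0.0504 to 0.115).

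**Figure D5:**
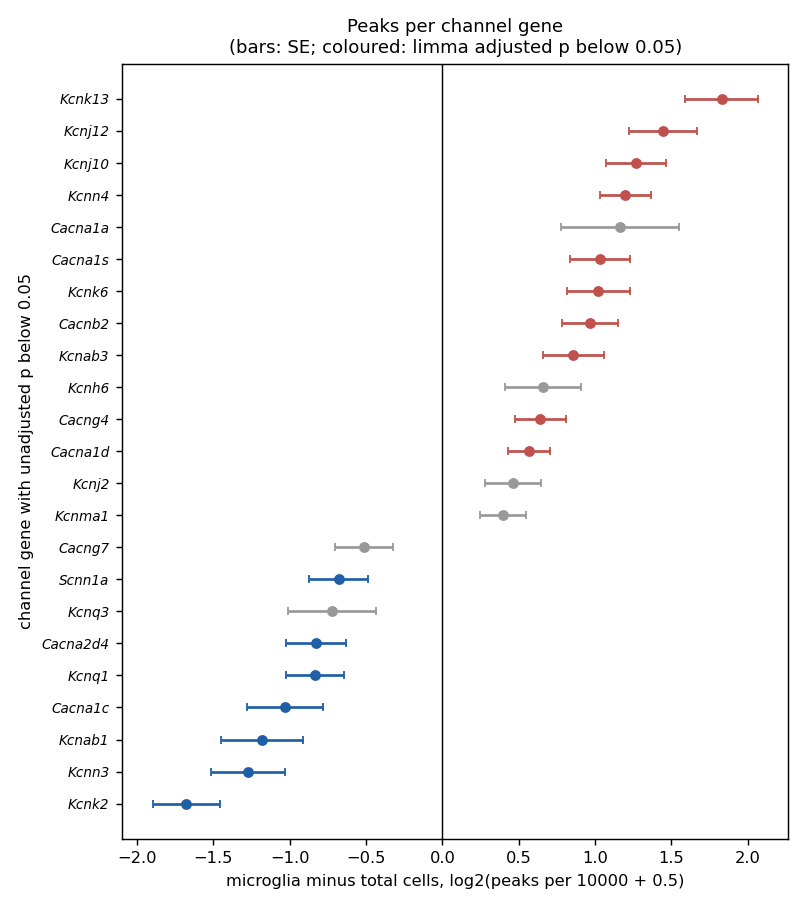
Difference in peaks between microglia and total cells for the 23 of 33 channel genes tested that had an unadjusted p below 0.05 (x axis, log2 of peaks per 10000 listed plus 0.5; bars are SE), in red (higher) or blue (lower) for an adjusted p below 0.05 and grey otherwise. Kcnk13 lies farthest to the right at 1.83 and Kcnk2 farthest to the left at -1.68.

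Presence or absence at the gene ends gave fewer genes. Gene-end peaks present throughout the microglia lists and absent from total cells were found for 3 channel genes (2.17%), Kcnn4, Cacna1s and Cacng4, against 1.5% of all genes, a share near the background. Their percentiles in microglia were 81.9, 82.2, 74.6 and 80.2 for Kcnn4, 85.3, 87.1, 40 and 93.6 for Cacna1s and 63.9, 25.5, 17 and 21.9 for Cacng4. For Kcnn4 the absence in total cells turned on the window. The 2 merged regions that made up its gene-end peaks also held a peak in total cells 5XFAD 1, and the one at 24371610 to 24372847 held one in 5XFAD 2 as well, outside the 2 kb. The Cacna1s region from 136116479 to 136118302 on chromosome 1 likewise held a peak in total cells 5XFAD 1, at a percentile of 68.9. Under 6 other settings of windows and peaks, Cacna1s kept the pattern in 4 and Kcnn4 and Cacng4 in 3 each. The reverse pattern was found for Kcnj14, an inward rectifier (0.725%, against 0.649% of all genes), whose windows overlap Cyth2 and Grwd1 and which kept it in 2 of the 6. In an exact two-sided permutation test per gene, 0 of 9007 genes passed after Benjamini-Hochberg adjustment (0%; lowest adjusted p = 0.546), while 471 genes, 4 of them channel genes, had the smallest unadjusted p that 4 against 4 libraries allow, 0.0286.

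Genotypes were compared within each preparation and over both. Within total cells, the ends of 8 channel genes (5.8%) were marked in the pair of 5XFAD libraries and unmarked in the WT pair, against 3.1% of all genes. They were Kcna3, Kcnj2, an inward rectifier of microglia and other cells, Kcnma1, Kcnn1, a small-conductance channel, Kcnt2, a sodium-activated channel, Cacna1c, Cacnb1 and Cacnb2. Of these, Kcnn1, Cacnb1 and Cacnb2 share windows with other genes. The opposite pattern was found for 1 channel gene, Kcnk7, a tandem-pore subunit that forms no current on its own (0.725%, against 1.64%), in windows shared with Ehbp1l1 and Map3k11. Kcnj2 had percentiles of 61.1 and 57 in the 5XFAD total cells, and in microglia of 37.3, 22.3, 46.1 and 57.4 in all 4 libraries. Kcna3 and Kcnj2 kept the pattern under all 6 other settings of windows and peaks, while Kcnma1 and Kcnn1 kept it under 5, Kcnt2 under 4 and Cacna1c, Cacnb1 and Cacnb2 under 3. The 5XFAD 1 library of total cells is also the one with 10 of 18 microglial markers and with the longest list of the total cell libraries, and the part of these in the 5XFAD counts was not tested. Leaving out each library in turn, which relaxes the rule and cannot lower the count, gave 8 to 12 such channel genes. Total cells 5XFAD 2 had 5 of 18 markers and 22807 peaks, beside 4 and 5 markers and 25271 and 22543 peaks in the WT libraries. The part of markers and list length was not tested for this library either.

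The numbers of peaks gave 2 channel genes past the threshold in total cells. In limma, 79 genes (0.891%) were called higher and 40 (0.451%) lower in total cells of 5XFAD mice than in those of WT mice, and the channel genes among them were Kcnt2 and Cacnb2, both higher. Kcnt2 (gene 240776, chromosome 1, 140245657 to 140614045) had 0 and 0 peaks in WT and 7 and 3 in 5XFAD total cells, with 1 and 2 in WT and 1 and 2 in 5XFAD microglia (adjusted p = 0.0102). Cacnb2 had 0 and 0 in WT and 3 and 2 in 5XFAD total cells (adjusted p = 0.024). With the WT libraries of total cells all at 0, the fitted sizes depend on the pseudocount. The call for Cacnb2 ended without total cells 5XFAD 1 (0.0549), total cells 5XFAD 2 (0.0908), microglia 5XFAD 1 (0.0605) or microglia 5XFAD 2 (0.0517). It also ended with the higher-scoring 50% of peaks, where the log2 difference went from 1.48 to 0.564 (0.638), with equal numbers of peaks (0.0956) and with genes averaging at least 0.25 peaks (0.0542). The call for Kcnt2 ended with equal numbers of peaks (0.0752). Kcnt2 passed the filter mainly through the 5XFAD total cells, the group in which it was called higher. With the higher-scoring 50% of peaks or a mean of at least 3 peaks it fell below the filter and was not tested.

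In microglia, no channel gene passed the test for a genotype difference in the number of peaks. limma called 0 of 8865 genes in either direction (0%), while 608 genes and 0 channel genes had an unadjusted p below 0.05. Averaged over both preparations, 12 genes (0.135%) were called higher and 3 (0.0338%) lower in 5XFAD, and none was a channel gene. An unadjusted limma p below 0.05 was found for 12 of the 33 channel genes tested and for 1150 of the 8865 genes. The difference between the genotype effects of the preparations passed for 3 genes (0.0338%) in limma and for no channel gene. Here 9 of the 33 channel genes and 1028 of the 8865 genes had an unadjusted p below 0.05. The lowest adjusted p among the channel genes was 0.0707, for Kcnt2, at a log2 difference of -2.30. The genotype difference of Kcnt2 in total cells was thus not shown to differ from that in microglia. At the gene ends, 3 channel genes (2.17%, against 3.19% of all genes) had a peak in both 5XFAD microglia libraries and neither WT library: Cacna1c, Kcnj10 and Kcnj9, the last a G protein-coupled inward rectifier subunit. Leaving out WT 2 raised this count to 10 and leaving out 5XFAD 1 to 7. The windows of Kcnj10 overlap Pigm and those of Kcnj9 overlap Igsf8. For Kcnj10 the pattern turned on the window, since the merged region beyond its end (172375639 to 172377424) held a peak in all 8 libraries. The reverse was found for 0 channel genes, against 0.58% of all genes.

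Cacna1c was the 1 channel gene with a gene-end peak in all 4 libraries of 5XFAD mice and in no library of WT mice (0.725% of members, against 0.174% of all genes), and the reverse was found for 0 (against 0.0274%). Cacna1c (gene 12288, chromosome 6, 118587240 to 119197384) had this peak at percentiles of 72.6 and 39.2 in total cells and 44.3 and 39.2 in microglia of 5XFAD mice. The merged region, 119196006 to 119196820, has its midpoint 4 bases from the start whose promoter is printed above. A separate region, 119194531 to 119194930, lay 1678 bases into the gene from the same start and was marked in total cells WT 1 and 5XFAD 2, so the pattern turned on the window. With 2 kb around transcription starts only, 0 channel genes showed it over all libraries. Intragenic peaks of Cacna1c numbered 8 and 3 in WT and 5 and 4 in 5XFAD total cells, and 2 and 4 in WT and 0 and 2 in 5XFAD microglia. The pattern over all libraries held under 2 of 6 other settings and is not past any test.

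Merging peaks over the 8 lists gave 73355 regions, of which 343 lay at 77 channel genes, 272 of them intragenic and 71 at gene ends. A region was marked in a single library for 163 of the 343 (47.5%), against 37.9% of all regions. Only 6 (1.75%) were marked in all 8 libraries, against 7.19%, among them regions at Cacna1d, Cacnb4, Kcnj10 and Kcnq1. The shares marked in all microglia and no total cell library (16 regions, 4.66%) and in the reverse (4 regions, 1.17%) were near those of all regions, 4.51% and 1.34%. In all 4 libraries of 5XFAD mice and none of WT mice there were 2 (0.583%, against 0.3%), the Cacna1c start and an intragenic region of Kcnd3, an A-type potassium channel. In the reverse there were 0 (against 0.0245%). Within microglia, 17 regions (4.96%, against 6.11%) were marked in 5XFAD alone and 3 (0.875%, against 1.23%) in WT alone. Within total cells, 21 (6.12%, against 5.47%) were marked in 5XFAD alone and 15 (4.37%, against 3.3%) in WT alone. All 4 shares were near those of all regions. Cacna1c, Cacna1d and Kcnma1 had regions both among the 21 in 5XFAD total cells and among the 15 in WT total cells.

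A pair of related lists, one of 8 and one of 41 genes, was described in the same way. All 8 channel genes known from microglia (Kcnk13, Kcnk6, Kcna3, Kcna5, Kcnn4, Kcnj2, Kcnd1 and Kcnma1) had a gene-end peak in at least 1 library, against 58.8% of all genes. Kcna5 had one in total cells 5XFAD 1 alone. In each of the 4 microglia lists, 3 of the 8 had one (Kcnk13, Kcnn4 and Kcnj2), as did 6434 of all 21883 genes. By library these 8 genes gave 2, 0, 6 and 3 in total cells and 4, 5, 5 and 7 in microglia. Over all genes the shares were 34.2% to 41.8% in total cells and 33.3% to 49% in microglia. Total cells 5XFAD 1, at 6, lay within the range of microglia. Of 41 other channel and partner genes, such as purinergic receptors, volume-regulated channels, ion pumps and scaffolds, 27 were marked at an end in at least 1 library (65.9%, against 58.8% of all genes) and 8 in all 8 libraries (19.5%, against 17.7%), shares near the background. Those 8 were the purinergic receptors P2rx4 and P2rx7, the volume-regulated channel subunits Lrrc8a and Lrrc8d, the calcium store genes Itpr2 and Stim2, Clic1 and the scaffold Dlg2. By library the counts were 13, 16, 16 and 13 in total cells and 17, 19, 17 and 22 in microglia, and no total cell library reached the lowest microglia library. These genes were chosen with earlier results known, and the lists have no test.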

How the data were processed

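H4K12la was measured by CUT&Tag in 8 libraries, 2 in each of 4 groups taken from the sample titles and labels. The submitters' processing notes name Bowtie2, deepTools, fastp 0.19.6 and the build GRCm38 (mm10). How peaks were called, and at which threshold, is not given in the sources used here. Each deposited list carries the authors' whole-number score per peak, of unstated unit and never below 20. The score ranked peaks within a list only, as a percentile. The depth per library is unknown, so no interval was computed.

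Gene limits, symbols and promoters came from RefSeq (GRCm38.p6); exons and introns were not used here. An overlap of at least 1 base placed a peak in a window. Peaks over each gene body and 2 kb on both sides, per 10000 listed peaks plus 0.5, were compared on the log2 scale with limma 3.58.1 (R 4.3.3), with 4 group means, genes averaging at least 1 peak and Benjamini-Hochberg adjustment over all genes tested. The fit was tested on simulated counts for microglia minus total cells. Of 156 tested genes changed 4-fold there, 72 (46.2%) were called, with 3 false calls. The comparisons of 2 against 2 libraries were not simulated. Gene-end presence was tested per gene over the 70 assignments of 4 of 8 libraries. The tables were made with Python 3.11.15. Alternatives changed the windows, peaks, pseudocount, filter, list length and replicate block, or left out each library.

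The members and lists were chosen with earlier results of these data known. Named in full were Kcnk13, Kcnk6 and Kcna3, genes called by limma (up to 10 a direction), genes marked at an end in all 8 libraries or throughout one group and nowhere in its counterpart, and the 5 with the most intragenic peaks; others were named after their values were seen. A channel gene that the rule takes in is not reported here. Replicate numbers were not used to pair the samples in the main fit.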

Additional observations from a re-analysis of the deposited data

How the results depend on the processing

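The lists give presence of peaks and no read counts, so weak marks below the authors' threshold cannot be seen, and longer lists mark more genes. With 2 libraries a group, counts of genes move with single libraries. The causes of the changes below were not tested.

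The deficit of channel genes kept its direction under every alternative. In microglia it was -18.1 percentage points with the higher-scoring 50% of peaks, -21.2 with clear windows and -30.4 among genes of at least 100 kb, an alternative chosen after seeing the data. In total cells it was -22.1, -21.0 and -32.8 in the same order, -22.3 at a score of at least 50 and -23.1 at transcription starts only. Leaving out a library gave -25.1 to -23.5 in microglia and -25.3 to -24.1 in total cells. The ratio of intragenic densities was 0.251 in total cells with the higher-scoring 50%, and 0.307 to 0.338 in microglia and 0.32 to 0.345 in total cells without one library.

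Counts of channel genes by presence at gene ends moved more. Leaving out a library relaxes each of these rules, so it cannot lower a count. Marked in all microglia and no total cell library were 0 at transcription starts only, and 3 to 4 without one library. Marked in all total cell and no microglia libraries were 0 with 1 kb or 5 kb windows, the higher-scoring 50%, peak midpoints, clear windows or starts only, and 1 to 1 without one library. Marked in all libraries were 4 with 5 kb windows, 0 with the higher-scoring 50%, a score of at least 50, clear windows or starts only, 1 without Scnm1 and the Scnn genes, and 2 to 3 without one library. Marked in no library were 93 to 97 without one library. In total cells, marked in both 5XFAD and no WT libraries were 4 with the higher-scoring 50%, 5 at a score of at least 50, 5 with clear windows and 8 to 12 without one library. In microglia these were 5 with 5 kb windows, 5 at a score of at least 50, 1 with clear windows, 1 at starts only and 3 to 10 without one library. Over all libraries they were 0 with 5 kb windows, equal numbers of peaks, a score of at least 50 or starts only, and 1 to 3 without one library.

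In limma, channel genes called higher in microglia were 4 with a mean of at least 3 peaks, 6 with equal numbers of peaks and 8 to 13 without one library. Those called lower were 12 with a mean of at least 0.25 peaks, 1 with at least 3, 4 with equal numbers, 0 with the higher-scoring 50% and 4 to 9 without one library, the 4 without microglia WT 1. Called higher in 5XFAD were 1 with bases covered, 1 with equal numbers, and 0 to 2 without one library, the 2 without total cells WT 1. In total cells, called higher in 5XFAD were 5 with a pseudocount of 0.1, 1 with a mean of at least 0.25 or 3 peaks, 5 with bases covered, 1 with equal numbers, 0 with the higher-scoring 50% and 1 to 3 without one library. Called lower there were 2 with a pseudocount of 0.1, 1 with a pseudocount of 1 and 0 to 3 without one library. The genotype difference in microglia minus that in total cells was called lower for 2 channel genes with a pseudocount of 0.1, 2 with bases covered and 0 to 2 without one library.

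Scnn1a turned to 0.0132 between preparations with the higher-scoring 50% of peaks. The genotype difference of Kcnk13 in microglia, not past the threshold, turned to -0.0906 with bases covered, -0.0254 with equal numbers, -0.28 with the higher-scoring 50% and -0.0975 without microglia 5XFAD 2. Calls for Kcnk13 and Kcnj12 between preparations held in all 17 alternatives.

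With the replicate number as a block, 12 channel genes were called higher and 8 lower in microglia, and 3 higher in 5XFAD total cells; the exact permutation within genotype and replicate number has a lowest p of 0.125 and called 0. Deviations of samples with the same number correlated from -0.101 to 0.202, the highest between WT and 5XFAD microglia. Whether such samples share more than a number was not tested, and the block is not used elsewhere.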
